A study of Mus musculus with 56 samples.

Results

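Chromatin immunoprecipitation followed by sequencing (ChIP-seq) with an antibody to RNA polymerase II phosphorylated on serine 2 (RNAPII-pS2) was compared between mouse bone marrow-derived macrophages (BMDMs) exposed to interleukin-4 (IL-4) alone and unstimulated BMDMs. The samples were chosen by their antibody and treatment labels, which gave 4 of the 56 samples of the series, and all of their peaks were used through the gene name and annotation that the files give to each. The BMDMs came from C57BL/6 mice aged 8 to 12 weeks and were grown from bone marrow for 6 days in medium with L929 cell supernatant. The 2 ctrl/ctrl samples (ctrl_ctrl) received neither cytokine nor lipopolysaccharide (LPS), and the 2 IL-4/ctrl samples (24hIL4_ctrl) received IL-4 at 20 ng/ml for 24 hr and no LPS. Each pair is given as independent biological replicates. For comparison, the 4 RNAPII-pS2 samples also exposed to LPS at 100 ng/ml for 1 hr were analysed in the same way. They are called ctrl/LPS and IL-4/LPS. So were the 4 samples without LPS taken with an antibody to RNA polymerase II phosphorylated on serine 5 (RNAPII-pS5) analysed. The RNAPII-pS5 fit also took in the 4 samples of that antibody with LPS.

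The largest subunit of RNA polymerase II carries a tail of repeated heptads that is phosphorylated on serine 5 as the polymerase leaves the promoter and on serine 2, mainly by the elongation kinase P-TEFb, as it moves through the gene. RNAPII-pS2 therefore builds up over gene bodies and beyond the 3' end of transcribed genes, and polymerase is also found at enhancers, where short enhancer RNAs are made. IL-4 acts through its receptor and the transcription factor STAT6, and in macrophages it drives the program called alternative activation, which includes genes of tissue repair, chitinase-like proteins and lectin receptors.

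Peaks had been called by the authors in each sample on its own, and the value of a peak is its score, the −log10 of the p or q value with which the peak rose above background. The 4 lists held 26983 and 26837 peaks in ctrl/ctrl and 25838 and 27488 in IL-4/ctrl, with median scores of 8.18 and 7.79 against 7.55 and 7.93. They covered 13.7 and 13.4 Mb in ctrl/ctrl and 13.5 and 14.9 Mb in IL-4/ctrl. A gene was given a summed score, the sum of the scores of its peaks outside intergenic sequence, which counted 9695 and 9700 genes in ctrl/ctrl and 8843 and 9226 in IL-4/ctrl. A score depends on read depth as well as on signal, and the depth of the samples is unknown from these files. Of 16 macrophage genes, 15 had a peak in the 4 samples, among them Csf1r, the receptor for colony-stimulating factor 1, with summed scores of 99.4 and 76.0 in ctrl/ctrl and 70.6 and 76.5 in IL-4/ctrl. The summed score of these genes together was 672 to 757 in ctrl/ctrl and 530 to 584 in IL-4/ctrl, and Cebpb alone had no peak. In a bulk sample, a smaller number of cells carrying polymerase on a gene and less polymerase per cell cannot be told apart.

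Regions outside genes are described first, with the sequence letters found there. All peaks of the 8 RNAPII-pS2 samples were merged into regions, and 28490 regions that had a peak in 2 or more of these 4 samples were tested with limma at a Benjamini-Hochberg adjusted p of at most 0.10. Of these, 5943 regions were lower in IL-4/ctrl (20.9%) and 6309 were higher (22.1%). No peak was present in either sample of the other group at 3504 of the lower and 3748 of the higher regions, which therefore had to differ. Among the 13980 regions with a peak in all 4 samples, 1562 were lower and 1688 higher in this fit. When this set was fitted alone, 2268 were called, 1031 lower and 1237 higher. The intergenic regions were 2154 lower and 3039 higher of 10605, and those in introns were 2394 lower and 2351 higher of 11013. The 6 intergenic regions with the largest rise, and the 6 with the largest fall, had no peak in either sample of the other group, so their difference is set by the floor given to a missing peak and their scores are given in place of a fold. A region 6.86 kb from the start of Ang6, an angiogenin-family ribonuclease gene, had scores of 98.3 and 97.6 in IL-4/ctrl. A region 51.3 kb from the start of Ptgs2, the gene of the inducible cyclooxygenase, had scores of 48.4 and 47.8 in IL-4/ctrl. A region 2.36 kb before Prss56 had 42.4 and 49.7, and a region 48.2 kb from Qpct, which encodes glutaminyl cyclase, had 36.8 and 52.2. The other regions of this kind lay 39.8 kb from Kcna3, a potassium channel gene, with 54.6 and 45.1, and 37.1 kb from Nfil3, a bZIP transcription factor gene, with 36.7 and 57.4.

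The regions near Ptgs2, Prss56, Nfil3 and Qpct also had peaks in ctrl/LPS, where IL-4 was absent. Such peaks were common at all intergenic regions. Of those that rose, 53.2% had a peak in both ctrl/LPS samples, beside 52.2% of those that fell and 61.8% of those not called. The scores in the 2 ctrl/LPS samples were 45.8 and 46.1 near Ptgs2, 52.2 and 62.4 near Prss56, 29.0 and 23.0 near Nfil3 and 20.1 and 24.3 near Qpct. In IL-4/LPS the region near Ptgs2 reached 91.9 and 81.8. The regions near Ang6 and Kcna3 had no peak in ctrl/LPS, and in IL-4/LPS they had 19.9 and 16.6, and 44.1 and 24.7.

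The regions that fell lay 67.9 kb from the start of Rbm46 (57.5 and 52.8 in ctrl/ctrl), 1.86 kb from Cabp1 (41.5 and 48.9) and 143 kb from Ahr (43.6 and 29.1). The others lay 6.63 kb from Olfr211 (31.4 and 37.1), 50.5 kb from Creb1 (28.4 and 33.2) and 4.7 kb from Ms4a4d (30.4 and 27.9). None of these regions had a peak in IL-4/ctrl. None of these 6 regions had a peak in IL-4/LPS, and those near Cabp1, Olfr211, Creb1 and Ms4a4d had a peak in both ctrl/LPS samples.

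Short sequence matches were counted in 300 bases at the centre of the highest peak of each region, on both strands of the mouse genome (GRCm38.p6, the build of the files). The letters of the AP-1 site, bound by dimers of Fos and Jun proteins, were searched as TGANTCA, those of a STAT6-type site as TTC and GAA with 4 bases between them, and those of an interferon response element, bound by interferon regulatory factors, as GAAA repeated after 2 bases. Among intergenic regions the AP-1 letters were in 34.6% of those that rose, 10.6% of those that fell and 18.4% of those not called, beside 21.5% of all. In introns the shares were 35.4%, 9.82% and 16.2%. The STAT6-type letters were in 13.7% of the intergenic regions that rose, 7.85% of those that fell and 9.48% of those not called. The interferon element went the other way, with 5.26% of the intergenic regions that rose, 11.4% of those that fell and 7.04% of those not called. Among intergenic regions with a peak in all 8 samples, in which no missing peak takes part, the AP-1 letters were in 36.4% of those that rose, 15.7% of those that fell and 23.2% of the others, and the interferon element in 6.79%, 14.9% and 8.98%. Also searched were a STAT-type site, with 3 bases between TTC and GAA, in 13.4% of the intergenic regions that rose and 11.4% of those that fell, and a PU.1-type site, in 3.92% and 7.29%. The median GC content of the windows was 45.3% in intergenic regions that rose and 46.0% in those that fell. These matches describe the letters in the windows, and binding was not measured here.

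**Figure D1:**
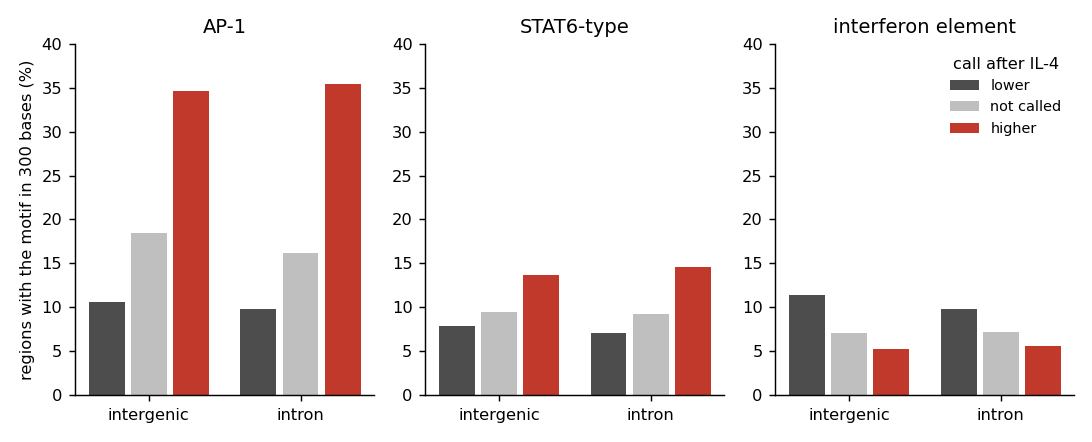
Share of 300-base peak windows (percent, y axis) that hold the letters of each searched site, for intergenic and intron regions called higher in IL-4/ctrl, called lower or not called. The AP-1 bars are highest in the regions called higher (34.6% of intergenic regions), and the interferon element bars are highest in the regions called lower (11.4% of intergenic regions).

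The windows of 3 of the regions that rose and of 1 that fell are printed to show these letters in place. The sequences were read on the forward strand of the RefSeq assembly GRCm38.p6, and capitals mark the AP-1 letters. The windows lie at chr1:150151316-150151615 (near Ptgs2), chr1:87180987-87181286 (near Prss56), chr17:79099920-79100219 (near Qpct) and chr5:115187832-115188131 (near Cabp1). The window near Prss56 holds the letters at 2 places, those near Ptgs2 and Qpct at 1 each, and the window near Cabp1 at none. The windows near Ang6, Kcna3 and Nfil3, which also rose, held none, nor did those of the other 5 regions that fell.
Ptgs2 region, higher in IL-4/ctrl: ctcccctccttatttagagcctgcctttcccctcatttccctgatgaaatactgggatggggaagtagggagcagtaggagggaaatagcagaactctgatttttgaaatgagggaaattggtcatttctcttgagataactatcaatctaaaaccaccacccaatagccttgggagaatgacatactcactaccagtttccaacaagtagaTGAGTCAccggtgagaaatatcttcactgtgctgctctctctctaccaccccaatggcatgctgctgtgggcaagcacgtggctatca
Prss56 region, higher in IL-4/ctrl: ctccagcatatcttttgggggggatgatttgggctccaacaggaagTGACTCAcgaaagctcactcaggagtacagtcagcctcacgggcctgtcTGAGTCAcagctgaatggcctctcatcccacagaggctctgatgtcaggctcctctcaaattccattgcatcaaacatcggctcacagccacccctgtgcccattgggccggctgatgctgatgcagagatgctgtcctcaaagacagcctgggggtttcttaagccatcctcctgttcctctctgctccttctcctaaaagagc
Qpct region, higher in IL-4/ctrl: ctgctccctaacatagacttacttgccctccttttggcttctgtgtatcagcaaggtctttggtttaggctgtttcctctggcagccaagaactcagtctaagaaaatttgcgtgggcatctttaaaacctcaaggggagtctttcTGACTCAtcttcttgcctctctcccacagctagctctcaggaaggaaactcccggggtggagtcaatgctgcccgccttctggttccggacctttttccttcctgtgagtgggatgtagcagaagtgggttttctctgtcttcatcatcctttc
Cabp1 region, lower in IL-4/ctrl: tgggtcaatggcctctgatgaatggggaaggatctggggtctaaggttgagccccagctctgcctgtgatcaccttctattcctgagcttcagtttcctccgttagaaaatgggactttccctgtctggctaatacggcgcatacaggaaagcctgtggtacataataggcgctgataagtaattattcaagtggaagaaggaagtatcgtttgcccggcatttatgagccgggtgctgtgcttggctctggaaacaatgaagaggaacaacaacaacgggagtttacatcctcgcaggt

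Over genes, 10294 genes that had a peak in 2 or more of these 4 samples were tested, and 1297 were lower in IL-4/ctrl (12.6%) and 1319 higher (12.8%), by limma at an adjusted p of at most 0.10. The median log2 change of all genes tested was −0.09. Of the genes called higher, 458 had no peak in either ctrl/ctrl sample, and of those called lower, 638 had no peak in either IL-4/ctrl sample. These genes had to differ once they passed the filter. Among the 6869 genes with a peak in all 4 samples, 405 were called lower (5.9%) and 617 higher (8.98%) when this set was fitted alone. Because the class and gene name of a peak follow from its centre, the region under each gene's highest peak, its leading region, was also tested whatever its class, and 1012 of the 1297 genes called lower (78.0%) had a leading region called lower. The same held, for higher, in 1056 of the 1319 genes (80.1%). Each leading region was picked from the same 4 samples, so this agreement is not independent of the gene calls. Peaks were also joined to genes by overlap with the gene span in place of the gene name. By span, 837 of the genes called lower (64.5%) stayed lower and 7 turned higher. Of those called higher, 788 (59.7%) stayed higher and 10 turned lower. With 2 samples against 2, an exact permutation test of a single value cannot go below p = 0.333, so calls rest on the spread that limma shares across genes.

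Most tested genes of alternative activation were higher in IL-4/ctrl. Of 18 listed genes, 16 were tested, 10 were called higher and 1 lower, with a median log2 change of 0.95. Over all genes tested, 12.8% were called higher and 12.6% lower. Retnla, Chil3, Fn1 and Slc7a2, all called higher, had no peak in ctrl/ctrl, so they passed the filter through IL-4/ctrl alone. Among the 8 members with a peak in all 8 samples, 4 were called higher and 1 lower, beside 13.5% and 10.1% of all such genes. By leading region, 9 were called higher and 2 lower of 16, with a median of 1.40, beside 16.3% higher and 19.8% lower over the leading regions of all genes. The summed score of the list was 501 in each ctrl/ctrl sample and 689 and 801 in IL-4/ctrl. The list also showed the direction in RNAPII-pS5, where 5 of 15 tested genes were called higher and 0 lower by limma, beside 14.4% of all genes called in either direction.

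Retnla, which encodes the secreted protein RELMα, a hallmark of alternative activation, ranked first among the genes called higher. It had no peak in either ctrl/ctrl sample and summed scores of 54.9 and 57.8 in IL-4/ctrl. The score of each IL-4/ctrl sample came from a single peak, and the wider of these ran over chr16:48842552-48846676, 4125 bases, while the gene lies at chr16:48842609-48844461. The peak therefore ran across the whole gene and past its end. An intergenic region 11.03 kb before the start had peaks without IL-4, with scores of 14.9 and 15.7 in ctrl/ctrl and 32.9 and 29.6 in IL-4/ctrl (log2 change 1.08 ± 0.34 SE, adjusted p = 0.0505, limma). A second intergenic region 8.76 kb before the start had 22.5 and 18.5 against 13.2 and 25.3 and did not pass the test. In RNAPII-pS5 the summed scores of Retnla were 0 and 0 in ctrl/ctrl and 73.7 and 82.2 in IL-4/ctrl.

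The other secreted markers of the list had lower scores. Chil3, the chitinase-like protein Ym1, had no peak in ctrl/ctrl and summed scores of 17.96 and 20.5 in IL-4/ctrl, with an intron peak 0.601 kb from the start that scored 12.0 and 15.0. An intergenic peak past the end of Chil3 scored 16.3 and 16.5 in IL-4/ctrl, with none in ctrl/ctrl. Fn1, which encodes fibronectin, had no peak in ctrl/ctrl and 24.4 and 25.2 in IL-4/ctrl. Slc7a2, a cationic amino acid transporter that supplies arginine, had no peak in ctrl/ctrl and 6.00 and 7.42 in IL-4/ctrl. The related Chil4 had a peak in 1 sample only, an IL-4/ctrl sample, and was not tested.

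Among members with a peak in all 4 samples the changes could be sized. Cdh1, which encodes E-cadherin, had summed scores of 12.5 and 14.9 in ctrl/ctrl and 61.6 and 55.5 in IL-4/ctrl (log2 change 2.26 ± 0.33 SE, adjusted p = 0.0046, limma). The groups did not overlap, which alone gives p = 0.333 by an exact permutation test, and the replicates of each were close together. Il1rn, the antagonist of the interleukin-1 receptor, had 15.8 and 18.4 against 39.7 and 50.6 (1.55 ± 0.19 SE, adjusted p = 0.00307). Mgl2, a C-type lectin receptor, had 6.00 and 8.62 against 20.9 and 43.8 (2.23 ± 0.78 SE, adjusted p = 0.0877), with the IL-4/ctrl samples unlike each other. Plin2, a lipid droplet protein, had 15.8 and 12.9 against 19.7 and 38.1 (1.10 ± 0.30 SE, adjusted p = 0.0416). Cd36, the scavenger receptor, had the highest summed scores of the list, 203 and 198 against 229 and 247, and its rise was small (0.40 ± 0.08 SE, adjusted p = 0.013).

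Some hallmark genes were not called higher. Arg1, which encodes arginase 1, had 22.1 and 26.0 in ctrl/ctrl and 32.8 and 42.6 in IL-4/ctrl (log2 change 0.80 ± 0.36 SE, adjusted p = 0.175, limma). Mrc1, the mannose receptor, had 44.0 and 41.1 against 40.4 and 58.5, so that the groups overlapped (0.35 ± 0.28 SE, adjusted p = 0.439). Pdcd1lg2, which encodes the checkpoint ligand PD-L2, fell from 75.3 and 82.7 to 43.5 and 43.8 (−0.70 ± 0.15 SE, adjusted p = 0.0188). All 3 genes had peaks in ctrl/ctrl.

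The other genes with the largest rise were of mixed function, and all but H4c3 had a summed score of 0 in ctrl/ctrl. Rnase2a (Ear11 in the files), an eosinophil-associated ribonuclease, had 46.6 and 46.4 in IL-4/ctrl from a peak at its end, where a ctrl/ctrl sample had a peak of 4.26 that was not counted for the gene. Flt1, the receptor for vascular endothelial growth factor, had 30.6 and 30.3 from an intron peak. Chd5, a chromatin remodeller, had 39.8 and 40.1, Efcc1 had 37.3 and 42.6, and Plekhg1 had 28.2 and 27.7. H1f8 had 28.1 and 54.3, Scn3a, a sodium channel, 22.0 and 35.9, and Tex9 33.8 and 30.8. In 3 of the 12 genes the named gene was only the nearest start, since the peaks of Mir1901 and Micalcl lay in introns of Cables1 and Mical2, and that of H4c3 at the end of Hfe, the hemochromatosis gene. The scores were 40.9 and 35.9 for Mir1901, 31.7 and 43.8 for Micalcl, and 49.0 and 57.8 for H4c3, which had 4.24 in a ctrl/ctrl sample. Nearly all of these genes passed the filter through IL-4/ctrl alone, so no test is given.

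Among genes with a peak in all 4 samples, a choice made after the values were seen, the largest rise was in Pcdh7, a protocadherin. Its summed scores were 6.25 and 8.28 in ctrl/ctrl and 88.0 and 91.2 in IL-4/ctrl (log2 change 3.80 ± 0.18 SE, adjusted p = 0.000201, limma). Most of this came from a region in intron 1 of 2, which scored 6.25 and 8.28 against 68.2 and 76.7. The same region scored 60.8 and 51.3 in ctrl/LPS and 97.0 and 110 in IL-4/LPS. Mgam, a maltase, had 9.77 and 6.52 against 77.3 and 70.5 (3.37 ± 0.22 SE), and Akap6, a kinase-anchoring protein, 7.09 and 4.88 against 41.3 and 51.8 (3.13 ± 0.35 SE). The peaks named for Mir491 lay in an intron of Focad, the focadhesin gene, and had 10.99 and 17.9 against 129 and 122 (3.31 ± 0.24 SE).

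**Figure D2:**
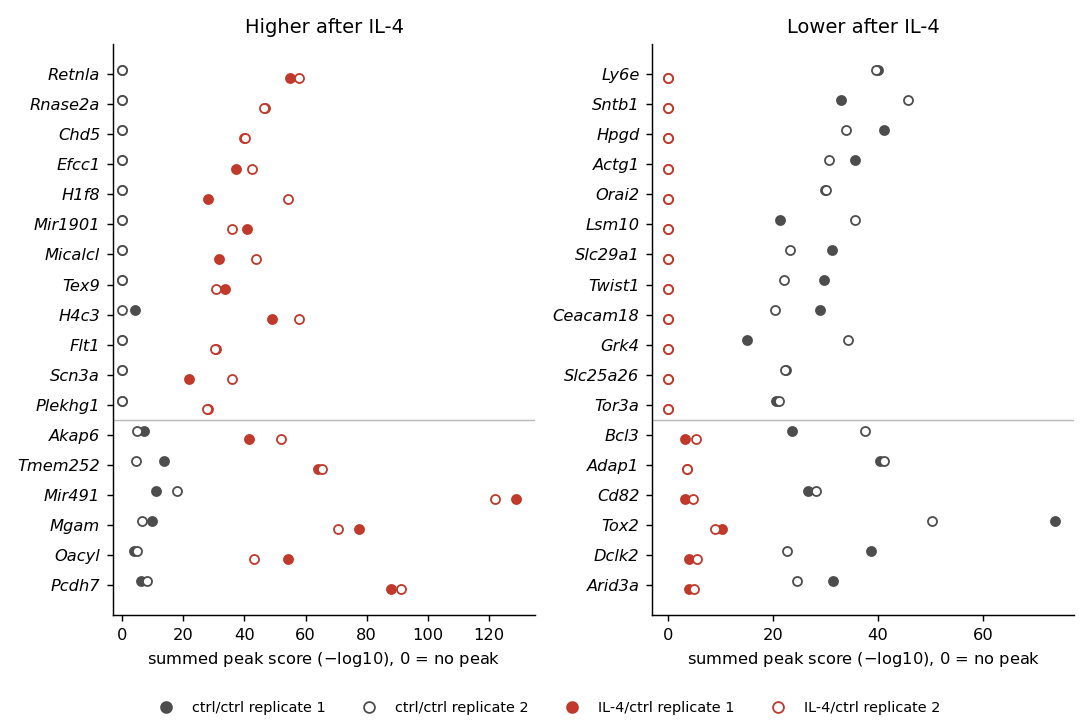
Summed RNAPII-pS2 peak score (x axis, −log10 units, 0 where a gene had no peak) in each of the 4 samples for genes called higher (first panel) and lower (second panel), with the 12 of largest change above the grey line and genes with a peak in all 4 samples below it. Retnla has 54.9 and 57.8 in IL-4/ctrl and no peak in ctrl/ctrl, and Ly6e has 40 and 39.6 in ctrl/ctrl and no peak in IL-4/ctrl.

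Interferon response genes were mostly lower in IL-4/ctrl. Of 20 listed genes, all with a peak in some of the 4 samples, 11 were called lower and 1 higher, with a median log2 change of −1.13. Over all genes tested, 12.6% were called lower and 12.8% higher. By leading region 16 of 20 were called lower and 0 higher, with a median of −1.24 beside −0.25 over all genes. Of the leading regions of all genes, 19.8% were lower and 16.3% higher. Among the 15 members with a peak in all 8 samples, 8 were called lower and 0 higher, beside 10.1% and 13.5% of all such genes. The summed score of the list was 583 to 595 in ctrl/ctrl and 265 to 342 in IL-4/ctrl. In RNAPII-pS5, 8 of 19 were called lower and 0 higher, with a median of −1.25, beside 6.54% lower and 7.85% higher of all genes.

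Irf7, the transcription factor that amplifies the type I interferon response, had summed scores of 62.0 and 68.0 in ctrl/ctrl and 20.9 and 19.9 in IL-4/ctrl (log2 change −1.51 ± 0.18 SE, adjusted p = 0.00249, limma). Mx1, an antiviral GTPase, had the highest scores of the list, 92.5 and 105 against 32.6 and 43.6 (−1.23 ± 0.18 SE, adjusted p = 0.00473). Gbp2, a guanylate-binding protein, had 25.0 and 28.1 against 8.74 and 12.9 (−1.16 ± 0.24 SE, adjusted p = 0.0145). In each of these 3 genes, which were chosen after their values were seen, the groups did not overlap. With 2 samples against 2, that alone gives p = 0.333 by an exact permutation test. Usp18, a negative regulator of the interferon receptor, had 33.6 and 17.4 against 2.82 and 9.28 (−2.08 ± 0.51 SE, adjusted p = 0.0278), and the ctrl/ctrl samples differed widely from each other.

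Some sensors and effectors of the antiviral response fell with them, and others did not. Isg15, with 14.9 and 12.9 against 10.6 and 15.3, and Ifit1, with 4.65 and 22.1 against 8.66 and 24.6, were not called. Gbp5 had 23.0 and 19.2 in ctrl/ctrl and no peak and 5.33 in IL-4/ctrl. Rsad2, which encodes viperin, had 15.1 and 13.1 against no peak and 7.79. The oligoadenylate synthetase genes Oas3 and Oas2 had 12.6 and 18.2 against 4.82 and no peak, and 5.15 and 5.96 against no peak in either sample. Ddx58, which encodes the RNA sensor RIG-I, had 9.81 and 10.8 and no peak in IL-4/ctrl, and Ifih1, the sensor MDA5, had 16.3 and 14.5 against 5.42 and 7.58. Irf9, a factor that transmits the interferon signal, was the member called higher, with 39.8 and 39.2 against 46.2 and 55.4 (log2 change 0.51 ± 0.15 SE, adjusted p = 0.0544, limma).

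Promoters of 3 of these genes are printed to show where the searched letters lie, each as the 250 bases before the annotated start from RefSeq (GRCm38.p6), read on the strand of the gene. Retnla, at chr16:48842359-48842608 on the forward strand, holds the STAT6-type letters beginning 145 bases before the start, marked in capitals. Gbp5, at chr3:142496684-142496933 on the forward strand, holds the interferon element beginning 165 bases before the start, and Oas3, at chr5:120777660-120777909 on the reverse strand, 75 bases before it. The interferon element was in 2.98% of all promoters of this length, in 2.71% of those of the genes tested, in 4.41% of those of genes called lower and in 2.18% of those of genes called higher. The STAT6-type letters were in 5.85% of all promoters, 6.45% of those of genes called higher and 5.0% of those called lower. Other named genes did not follow the printed examples. The STAT6-type letters were also before Grk4, called lower, and Nlrp3, not called, but not before Chil3 or Flt1, both called higher. Socs1, called higher, held the interferon element.
Retnla promoter, STAT6-type letters in capitals: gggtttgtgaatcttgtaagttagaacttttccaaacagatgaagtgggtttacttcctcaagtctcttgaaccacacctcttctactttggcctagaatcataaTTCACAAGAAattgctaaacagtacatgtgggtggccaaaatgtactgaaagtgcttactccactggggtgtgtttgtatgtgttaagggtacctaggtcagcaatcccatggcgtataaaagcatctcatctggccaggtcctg
Gbp5 promoter, interferon element in capitals: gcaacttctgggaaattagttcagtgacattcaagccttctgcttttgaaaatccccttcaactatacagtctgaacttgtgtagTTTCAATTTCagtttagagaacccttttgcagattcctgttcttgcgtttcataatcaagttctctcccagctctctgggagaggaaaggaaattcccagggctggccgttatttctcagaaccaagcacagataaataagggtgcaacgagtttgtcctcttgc
Oas3 promoter, interferon element in capitals: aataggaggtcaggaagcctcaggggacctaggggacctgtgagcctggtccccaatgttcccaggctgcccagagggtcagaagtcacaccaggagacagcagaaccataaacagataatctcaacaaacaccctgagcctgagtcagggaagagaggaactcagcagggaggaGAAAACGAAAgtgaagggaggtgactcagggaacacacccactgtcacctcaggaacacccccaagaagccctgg

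Other genes with the largest fall had no peak in either IL-4/ctrl sample. Ly6e, a surface protein of the Ly6 family that interferon induces, had summed scores of 40 and 39.6 in ctrl/ctrl. Its peaks lay at the promoter, with 16.1 and 16.8, in an intron, with 13.4 and 12.2, and at the end, with 10.4 and 10.6. An intergenic region 22.4 kb before Ly6e fell with them, from 64.1 and 64.95 to 2.72 and 7.73 (log2 change −3.76 ± 0.46 SE, adjusted p = 0.00131, limma). A region 34.2 kb before it had 26.6 and 26.4 against 22.2 and 11.2 and did not pass.

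Hpgd, the enzyme that breaks down prostaglandins, had 41.1 and 33.9 in ctrl/ctrl, and Sntb1, a syntrophin of the membrane skeleton, 32.9 and 45.7. Slc29a1, a nucleoside transporter, had 31.3 and 23.2, Tor3a, an interferon-inducible torsin, 20.6 and 21.1, and Slc25a26, a mitochondrial carrier, 22.5 and 22.3. Ceacam18 had 29.0 and 20.4 and Grk4, a receptor kinase, 15.0 and 34.3. The peaks named for Lsm10 (21.2 and 35.6) lay in an intron of Oscp1, and those named for Twist1 (29.7 and 22.1) in an intron of Hdac9, a histone deacetylase gene. For Orai2, a calcium channel subunit, the gene had no peak by its class in IL-4/ctrl, but its leading region scored 29.8 and 30.1 against 12.7 and 17.6. The end peak of Actg1, which encodes gamma-actin, was classed as intergenic in IL-4/ctrl only, so the gene was called lower although the region itself rose, from 35.6 and 30.7 to 64.8 and 81.3 (log2 change 1.18, adjusted p = 0.000776).

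Genes with a peak in all 4 samples that fell most, again chosen after the values were seen, were led by Adap1, which encodes an ArfGAP protein. It had 40.4 and 41.1 in ctrl/ctrl and 3.61 and 3.69 in IL-4/ctrl (log2 change −3.32 ± 0.23 SE, adjusted p = 0.000398, limma). Cd82, a tetraspanin, had 26.8 and 28.2 against 3.24 and 4.84 (−2.64 ± 0.37 SE). Tox2, an HMG-box factor, had 73.7 and 50.2 against 10.2 and 8.98 (−2.51 ± 0.29 SE), and Arid3a, a DNA-binding factor, 31.4 and 24.7 against 3.97 and 5.06 (−2.48 ± 0.47 SE). Bcl3, an atypical inhibitor of NF-kB, had 23.6 and 37.5 against 3.16 and 5.35, but its leading region at the promoter was not called (log2 change −0.26, adjusted p = 0.416).

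The MHC class II genes, which present antigen, had 3 of 7 tested members called higher and 0 lower, with a median log2 change of 1.20. Over all genes tested, 12.8% were called higher and 12.6% lower, and by leading region 16.3% and 19.8%. H2-DMb1 had no peak in ctrl/ctrl and 8.65 and 8.41 in IL-4/ctrl, H2-Eb1 3.74 and no peak against 12.2 and 9.12, and H2-DMa 5.54 and 4.66 against 10.1 and 16.8. All 3 were low in every sample. Of 13 tested transcription factors known to respond to IL-4, 5 were called higher and 2 lower, with a median of 0.70, and 5 and 4 by leading region. Egr2, an early growth response factor, had 4.78 and no peak against 24.0 and 15.2, Bcl6, a repressor that shares sites with STAT6, no peak against 9.99 and 6.84, and Myc no peak and 6.17 against 14.0 and 11.8. Bhlhe41 went the other way, from 8.80 and 4.28 to no peak.

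In the IL-4 receptor, STAT6 and feedback list, 2 of 13 tested genes were called higher and 2 lower, and by leading region 0 higher and 3 lower of 12. By summed score 30.8% of its tested genes were called, beside 25.4% of all genes. Socs1, the feedback inhibitor of JAK kinases, rose from 27.6 and 20.1 to 65.8 and 71.8 in summed score (log2 change 1.70 ± 0.23 SE, adjusted p = 0.00373, limma), but the highest of the peaks that carry its name lay in an intron of Clec16a. The promoter region of Socs1 itself had 12.0 and 14.1 in ctrl/ctrl and no peak in IL-4/ctrl, whereas a region of 3658 bases that covers its end had no peak in ctrl/ctrl and 19.9 and 22.0 in IL-4/ctrl. Irs2, an adaptor of the IL-4 receptor, rose from 49.9 and 60.1 to 90.1 and 97.8, while its leading region was not called. Jak1 and Ptpn6, a kinase and a phosphatase of the receptor, were called lower, with 48.8 and 31.9 against 22.8 and 14.9, and 21.5 and 25.1 against no peak and 4.31.

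Among IL-4-linked chemokines and growth factors, 3 of 12 were called higher and 1 lower by summed score, whereas 2 were higher and 3 lower by leading region, with a median of −0.30. The share called by summed score was 33.3%, beside 25.4% of all genes. The neighbouring chemokine genes Ccl7 and Ccl2 moved in opposite directions in RNAPII-pS2, with 11.2 and 5.16 against 15.3 and 17.3 for Ccl7 (log2 change 1.25 ± 0.35 SE, adjusted p = 0.044, limma) and 32.5 and 31.4 against 16.8 and 12.8 for Ccl2 (−0.97 ± 0.22 SE, adjusted p = 0.0214). In RNAPII-pS5 both were called higher, with log2 changes of 2.05 for Ccl7 and 0.92 for Ccl2. The region 12.8 kb before Ccl2 had 55.4 and 64.0 against 56.5 and 81.4 and was not called. Flt1 and Hbegf, a growth factor of the EGF family, were the other members called higher, Hbegf with 6.06 and 10.8 against 21.3 and 24.2, although its leading region was not called.

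Of 21 genes of the Toll-like receptor pathway, 3 were called lower and 1 higher, beside 12.6% and 12.8% of all genes, and 4 and 2 by leading region. Tlr4, the receptor for LPS, had 57.4 and 65.5 in ctrl/ctrl and 21.4 and 28.7 in IL-4/ctrl (log2 change −1.15 ± 0.21 SE, adjusted p = 0.0106, limma), and its leading region at the promoter fell too. Tlr5, the flagellin receptor, had 7.44 and 11.9 and no peak in IL-4/ctrl. Ticam1, which encodes the adaptor TRIF, rose from 37.1 and 29.2 to 44.5 and 47.5 (0.64 ± 0.17 SE, adjusted p = 0.0399). Irak2, a kinase of the pathway, was called lower on its summed score (70.9 and 59.5 against 28.2 and 40.1), but neither its leading region nor its highest peak was.

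Of 16 inflammasome genes, 4 were called lower and 0 higher by summed score, and 3 lower and 2 higher by leading region, with a median of −0.09. The share called by summed score was 25%, beside 25.4% of all genes (12.6% lower and 12.8% higher). Gsdmd, which encodes the pore-forming gasdermin D, had 8.93 and 9.58 in ctrl/ctrl and no peak in IL-4/ctrl. Nlrp1b, a sensor, had 59.98 and 65.1 against 29.0 and 40.2 (log2 change −0.72 ± 0.19 SE, adjusted p = 0.0341, limma). Nlrc4 and the ATP receptor P2rx7 were also called, with 24.2 and 22.4 against 9.56 and 8.60, and 35.7 and 32.4 against 12.8 and 15.5, but their leading regions were not. Nlrp3 had 25.9 and 35.4 against 23.1 and 31.2, which overlap.

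Of 12 AP-1 and early growth response genes, 4 were called lower and 3 higher, beside 12.6% and 12.8% of all genes. The members differed in direction. Jun rose from 14.0 and 16.1 to 49.7 and 53.3 (log2 change 1.94 ± 0.22 SE, adjusted p = 0.00249, limma). The call came from its end, where the region at chr4:95047605-95049663 had 2.59 and no peak in ctrl/ctrl and 27.2 and 26.7 in IL-4/ctrl. The promoter region had 11.4 and 16.1 against 12.3 and 14.0 and did not pass (log2 change 0.01 ± 0.31 SE). Fosl2 rose from 8.02 and 12.3 to 27.97 and 28.2 (1.66 ± 0.26 SE, adjusted p = 0.00616), and its leading region also lay at the end. Fosb fell from 24.2 and 17.2 to 3.93 and no peak, with a leading region at the promoter. By leading region, 2 of the 11 tested were higher and 4 lower.

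Of 13 NF-kB subunits and inhibitors, 2 were called lower and 2 higher, shares near those of all genes (12.6% and 12.8%), and 2 and 3 by leading region. Nfkbia, the inhibitor IκBα, rose from 75.2 and 72.0 to 112 and 125 (log2 change 0.85 ± 0.12 SE, adjusted p = 0.00407, limma), and Nfkb1, the p105 subunit, fell from 44.2 and 31.6 to 16.2 and 20.5 (−0.88 ± 0.25 SE, adjusted p = 0.045). With peaks joined by gene span, however, Nfkbia was called lower. In RNAPII-pS5 Nfkbia was not called (log2 change −0.02). Rela was called higher on its summed score, but the region at its end, 46.9 and 25.9 against 44.5 and 56.2, was classed as intergenic in ctrl/ctrl only and was not called. Of 11 inflammatory cytokines and mediators tested, 2 were called higher and 1 lower, and 1 and 1 by leading region. Ccl3, a chemokine, fell from 33.1 and 29.7 to 15.0 and 18.8, and Tnf had 42.6 and 42.5 against 53.0 and 57.2 (0.53 ± 0.14 SE, adjusted p = 0.0376) with a leading region that was not called.

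Lipid and lysosomal genes were mixed. Of 14 genes of cholesterol efflux and lipid nuclear receptors, 4 were called lower and 0 higher, with a median of −0.47, and 3 and 1 by leading region. The share called by summed score was 28.6%, beside 25.4% of all genes (12.6% lower and 12.8% higher). Ppard, a fatty acid-sensing receptor, had 40.4 and 47.3 in ctrl/ctrl and 9.73 and 14.2 in IL-4/ctrl, and Pparg 80.99 and 58.9 against 37.1 and 47.4 (log2 change −0.56 ± 0.16 SE, adjusted p = 0.049, limma). Abca1, the cholesterol efflux pump, had 73.4 and 77.9 against 52.4 and 86.4, so that the IL-4/ctrl samples lay on both sides of the others. Of 18 lysosomal genes, 3 were called higher and 2 lower, and by leading region 6 higher and 1 lower. The share called by summed score, 27.8%, was near that of all genes. Ctsk, the protease cathepsin K, rose from 5.42 and 8.66 to 27.1 and 32.8, and Cd68, a lysosomal glycoprotein of macrophages, from 23.8 and 21.8 to 39.5 and 47.5.

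Calls in the remaining lists were of 2 genes or fewer in each direction. Over all genes tested, 12.6% were called lower and 12.8% higher. Of 18 genes of RNA polymerase II elongation, 1 was called higher and 0 lower, and Polr2a, the subunit that carries the tail, had 195 and 157 against 160 and 186 (log2 change 0.14 ± 0.10 SE). Of 13 corepressor and acetylation genes, 1 was lower and 0 higher, of 11 C-type lectin receptors 1 and 0, of 5 Fc gamma receptors 1 and 1, of 11 cell cycle genes 0 and 2, and of 15 macrophage lineage genes 1 and 1. By leading region 6 of 14 macrophage lineage genes were lower and 1 higher, beside 19.8% and 16.3% over all genes. Of 15 constitutive genes, 2 were called lower and 2 higher with a median of −0.63. Gapdh, a glycolytic enzyme, was among the higher, with 32.7 and 33.8 against 46.3 and 53.1 and a leading region at its end.

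**Figure D3:**
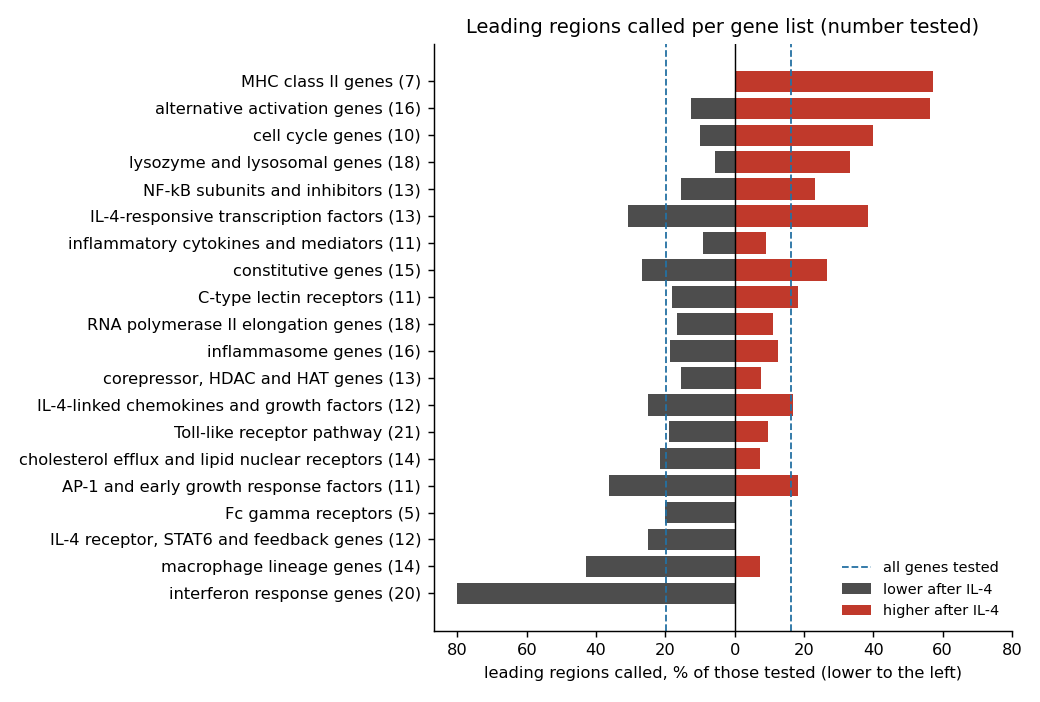
Share of the leading regions tested in each of the 20 gene lists that were called lower (bars to the left) or higher (bars to the right) in IL-4/ctrl, in percent on the x axis, with the number tested in brackets. Dashed lines mark the shares over all genes tested, 19.8% lower and 16.3% higher. Of the interferon response genes 16 of 20 were lower, and of the alternative activation genes 9 of 16 were higher.

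The place of the peaks within genes differed between the groups. Peaks classed as promoter made up 17.7% and 17.4% of the peaks in ctrl/ctrl (4782 and 4683 peaks) and 13.3% in each IL-4/ctrl sample (3443 and 3656 peaks). Peaks classed at transcript ends went the other way, from 3.42% and 3.48% (922 and 935) to 4.40% and 4.59% (1136 and 1261). The samples of the groups did not overlap in either class, and the exact permutation test gave p = 0.333, the smallest it can give here.

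The class of a peak follows from its centre, so the starts and ends of 15328 protein-coding genes of at least 2 kb were also looked up under any peak whatever its class, a check chosen after the values were seen. The starts of 2903 and 2810 genes (18.9% and 18.3%) lay under a peak in ctrl/ctrl, and of 1954 and 2133 (12.7% and 13.9%) in IL-4/ctrl. Fewer ends lay under a peak, 315 and 313 (2.06% and 2.04%) in ctrl/ctrl, against 393 and 455 (2.56% and 2.97%) in IL-4/ctrl. Of the genes with a start under a peak in both ctrl/ctrl samples, 441 had none in either IL-4/ctrl sample, and 83 genes had the reverse. For ends the numbers were 32 and 87. In RNAPII-pS5 the number of starts under a peak overlapped between the groups, with 2765 and 2465 genes in ctrl/ctrl and 2704 and 2793 in IL-4/ctrl. The ends in RNAPII-pS5 did not overlap, with 390 and 371 against 439 and 447, and the share of its peaks classed as promoter was 20.3% and 20.02% against 18.5% and 18.2%.

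**Figure D4:**
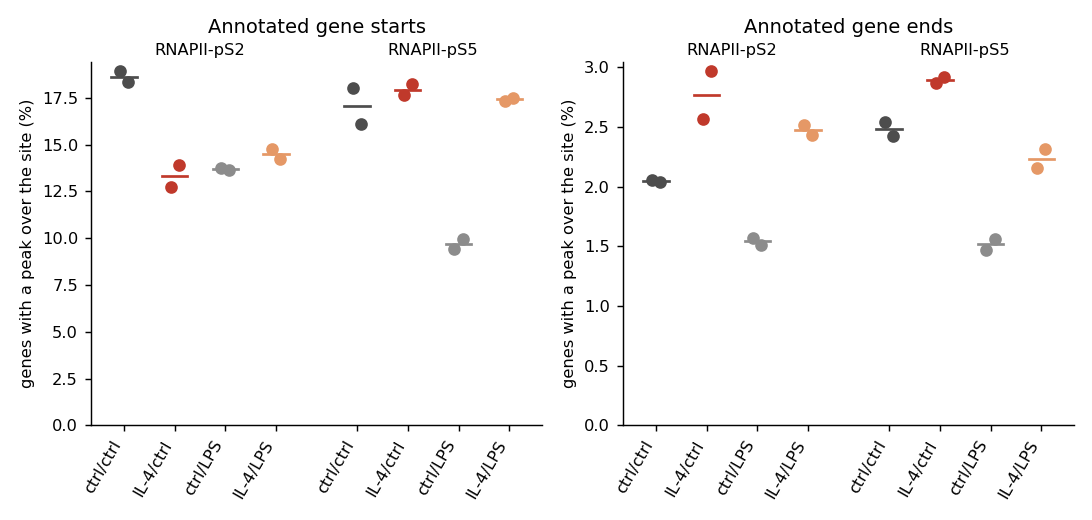
Percent of 15328 protein-coding genes (y axis) whose start (first panel) or end (second panel) lay under a peak, with 1 point per sample, a line at the mean of each pair and the 4 conditions of each antibody on the x axis. RNAPII-pS2 starts lie at 18.9% and 18.3% in ctrl/ctrl and at 12.7% and 13.9% in IL-4/ctrl.

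Tests of single regions also set starts and ends apart, at starts through the share called higher. Of 3338 regions over a gene start alone, 676 were called lower (20.3%) and 154 higher (4.61%), with a median log2 change of −0.46. Over all regions tested, 20.9% were called lower and 22.1% higher, so the share called lower at starts was near that of all regions. Of 513 regions over an end alone, 46 were lower (8.97%) and 191 higher (37.2%), with a median of 0.66. Among regions with a peak in all 8 samples, 12.9% of which were called lower and 15.5% higher in all, those over a start counted 177 lower and 57 higher of 1453, with a median of −0.28. Those over an end counted 13 lower and 69 higher of 199, with a median of 0.39. Regions over neither, 24526 in number, had a median of −0.03, with 21.3% called lower and 24.2% higher. Genes whose highest peak was at the promoter were called lower in 449 (12.7%) and higher in 196 (5.56%) of 3523 cases. Genes whose highest peak was at the end were called lower in 48 (6.72%) and higher in 197 (27.6%) of 714. Over all genes tested the shares were 12.6% lower and 12.8% higher.

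With LPS the shares of starts were closer together. They were 13.8% and 13.7% in ctrl/LPS and 14.8% and 14.2% in IL-4/LPS, and ctrl/ctrl stood above all the other conditions. The ends stayed apart with LPS, at 1.57% and 1.51% in ctrl/LPS and 2.52% and 2.43% in IL-4/LPS. Of 737 genes with a promoter peak in both ctrl/ctrl samples and in neither IL-4/ctrl sample, 424 had another peak in an IL-4/ctrl sample. A gene body peak was present in both IL-4/ctrl samples in 297 of these genes and in both ctrl/ctrl samples in 239, and 327 were called lower by summed score.

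RNAPII-pS5 in the same cells gave fewer calls, 626 genes lower (6.54%) and 751 higher (7.85%) of 9570. Of the genes tested in both, 353 were called higher with both antibodies, 33.1% of the RNAPII-pS2 calls and 54.7% of the RNAPII-pS5 calls. Another 227 were called lower with both, 22.5% and 40.4%, and 30 were called in opposite directions. Across 5548 genes with peaks in all samples of both antibodies, the log2 changes had Pearson's r of 0.449, a description across genes, which are not independent replicates. The median RNAPII-pS5 change was 0.98 among genes called higher in RNAPII-pS2 and −0.72 among those called lower, beside −0.01 over all.

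After 1 hr of LPS, the difference between IL-4/LPS and ctrl/LPS was called in fewer genes, 519 lower (5.04%) and 655 higher (6.36%) of 10294. Of the genes called higher without LPS, 271 were called higher with it (20.5%), and 182 of those called lower (14.0%). The median difference with LPS was 0.34 among genes higher without LPS and −0.21 among genes lower without it. The interferon list had a median of −1.13 without LPS and −0.05 with it, and 5 of its 20 members passed the test of the difference between these effects, which 1020 of all genes did (9.91%). Retnla, with no peak in ctrl/LPS, had 17.8 and 27.7 in IL-4/LPS, below its scores with IL-4 alone. A plot of both differences places the interferon and alternative activation genes among all genes with a peak in all 8 samples.

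**Figure D5:**
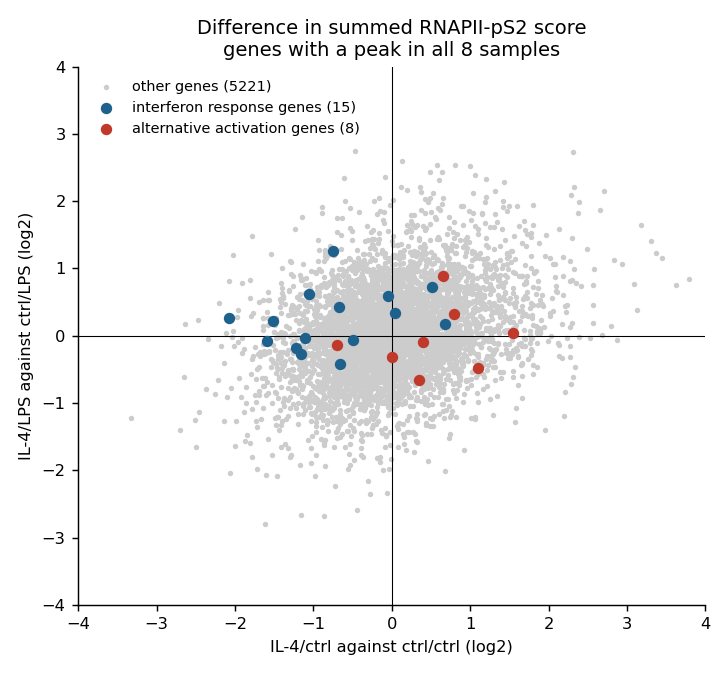
Log2 difference in summed RNAPII-pS2 score between IL-4/ctrl and ctrl/ctrl (x axis) and between IL-4/LPS and ctrl/LPS (y axis), 1 point per gene with a peak in all 8 samples. The 15 interferon response genes lie mostly to the left of 0 on the x axis, down to −2.08 at Usp18, and on both sides of 0 on the y axis, and of the 8 alternative activation genes Il1rn lies farthest to the right at 1.55.

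The study had grouped genes by their mRNA response to IL-4 and LPS in these cells, so these groups are not independent of the same cells. Over all genes tested, 12.8% were called higher and 12.6% lower, 25.4% in all. The share called ran from 23.3% in Cluster C to 61.5% in Cluster A, with 27.5% in Cluster E and 28.2% in Cluster 2. Of 26 tested genes of an early induced group (Cluster A), 15 were called higher and 1 lower, with a median log2 change of 1.71. The other early groups, B and C, had 42 higher and 12 lower of 123, and 30 and 24 of 232. In Cluster C the balance turned without centring, to 20 higher and 31 lower, and by leading region, to 32 and 38. The late induced group (D) had 109 higher and 30 lower of 352, and the repressed group (E) 53 higher and 86 lower of 506, with medians of 0.44 and −0.19. The groups defined by the LPS response were 51 higher and 81 lower of 433 (Cluster 1, attenuated), 59 and 94 of 542 (Cluster 2, insensitive) and 26 and 18 of 123 (Cluster 3, increased). For Cluster 3 the counts were 22 and 22 without centring, and 28 higher and 33 lower by leading region.

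Of 15 genes followed one by one in the study, 2 were called higher and 1 lower. This share, 20%, was below the 25.4% of all genes. Clec4d, a C-type lectin receptor, fell from 27.1 and 25.4 to 10.9 and 17.0 (log2 change −0.79 ± 0.25 SE, adjusted p = 0.0646, limma). Fos had 19.2 and 21.5 against 27.3 and 34.8, and was called higher with a leading region that was not. The study counted both Clec4d and Fos among genes whose mRNA IL-4 lowered. Edn1, which encodes endothelin 1, had 7.23 and no peak against 8.23 and 12.2, and reached 61.3 in an IL-4/LPS sample. Il1b had 31.9 and 21.7 against 51.7 and 59.9 and did not pass by summed score (adjusted p = 0.114, limma), while its leading region was called higher. The study reported the opposite direction for Il1b, with less RNAPII-pS2 and RNAPII-pS5 over its gene body after IL-4. That was seen in read coverage, a measure unlike the peak scores used here, and the reason for the difference was not tested.

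Some markers of other cells that marrow cultures can hold had peaks, and most had none. Of 10 neutrophil genes 5 had a peak, while Mpo, Ngp, Camp and Ly6g had none, and the summed score of the list was 12.3 to 24.3 in ctrl/ctrl and 27.5 to 41.1 in IL-4/ctrl. S100a9 was lower and Cxcr2 higher in IL-4/ctrl. Of 8 T cell genes 3 had a peak, with a sum of 46.5 in each ctrl/ctrl sample and 10.5 to 12.3 in IL-4/ctrl, and Cd3e and Cd3g had none. Of 8 B cell genes 2 had a peak, with 99.9 to 111 against 51.0 to 68.2, most of it at Ms4a1 (85.1 and 101 in ctrl/ctrl), whose scores were in the range of Csf1r, and Pax5 had none. Of 8 mast cell and basophil genes 0 had a peak, of 8 dendritic cell genes 2, of 8 fibroblast genes 1 and of 7 erythroid genes 1. Flt3, a dendritic cell and progenitor receptor, had 71.8 and 74.0 in ctrl/ctrl and 59.6 and 55.4 in IL-4/ctrl. Pdgfrb, a fibroblast receptor, had 61.97 and 46.5 against 37.6 and 36.3, and neither gene passed the test by summed score. By leading region Pdgfrb was called lower, and of the 2 dendritic cell genes tested 1 was lower and 0 higher. The part of these genes in the results above was not tested.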

How the data were processed

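The submitters' processing notes name BWA 0.7.10, SAMtools 0.1.19, MACS2 2.0.10 and HOMER 4.2. Per the methods, the authors aligned the reads to mm10, called peaks with MACS2 at a q value of at most 0.01 in each sample, removed blacklisted regions and annotated the peaks with HOMER. The deposited peak scores are −log10 values, and whether of p or of q is not given in the sources used here. Counts of reads were not analysed here, so the precision that depth gives each sample is unknown. The antibodies were to RNAPII-pS2 and RNAPII-pS5, on chromatin crosslinked with formaldehyde and disuccinimidyl glutarate.

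From these lists, a gene's peaks outside intergenic sequence, joined by the gene name in the files (that of the nearest start), were summed. A gene without a peak was given the lowest score of its antibody (1.39 for RNAPII-pS2 and 1.44 for RNAPII-pS5). Summed scores were put on the log2 scale and centred on the median of genes with a peak in all 8 samples of the antibody. Differences were tested with limma 3.58.1 (R 4.3.3) with a trended variance over the 8 samples, for genes that had a peak in 2 or more of the 4 samples without LPS, at a Benjamini-Hochberg adjusted p of at most 0.10, and ± is the standard error. Regions were the overlapping peaks of the 8 samples, each with its highest score in a sample, tested in the same way. On simulated data for 5244 genes, 31% of log2 changes of 1 and 81% of log2 changes of 2 were recovered. Tables were handled in Python 3.11.15 with pandas 2.3.3, NumPy 2.4.6 and matplotlib 3.10.9.

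Genes named were the 12 with the largest change in each direction among those called with a peak in both samples of the higher group and groups that did not overlap, the genes followed by the study, up to 4 called members of each list, and the 6 largest interactions, with the 6 intergenic regions of largest change in each direction. Any other gene or list member named was chosen after its values were seen. The samples, the 20 gene lists, 7 marker lists and the study's 8 clusters were chosen with earlier results of these data known, and the genes with a peak in all 4 samples and the leading regions were chosen after the values were seen. Promoter sequences were found for 85 of 113 named genes. Alternatives to the centring, the floor, the filter, the sum, the samples fitted and the threshold were computed. Some members of the lists are counted but not reported here by name.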

Additional observations from a re-analysis of the deposited data

Results flagged for a closer look

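The effect of IL-4 differed with and without LPS in 1020 of 10294 genes (9.91%, limma test of the interaction at an adjusted p of at most 0.10). The difference was negative in 525 of these genes and positive in 495. Without centring the split was 345 negative and 617 positive. The effect was smaller with LPS than without it in 764 of the 1020, and of opposite sign in 623. The filter used the samples without LPS alone, which favours genes that differ there.

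The largest such differences on the log2 scale (the effect with LPS less the effect without it) were 6.48 at Mllt3, −6.19 at Draxin, 5.79 at Snord2, −5.76 at Chrna10, 5.59 at Wdr61 and 5.38 at Smpd3. Mllt3, a subunit of the super elongation complex, had summed scores of 10.1 and 13.8 in ctrl/ctrl and no peak in IL-4/ctrl, and its effect with LPS was 3.55. Draxin, an axon guidance gene, had no peak in ctrl/ctrl and 14.2 and 8.76 in IL-4/ctrl, with an effect of −3.02 with LPS. Snord2, a small nucleolar RNA, had 51.7 and 48.6 against 17.5 and 30.1, and its effect with LPS was 4.82. The peaks named for Chrna10 lay in an exon of Nup98, a nucleoporin gene, with no peak in ctrl/ctrl and 14.3 and 4.58 in IL-4/ctrl. Wdr61, of the PAF1 elongation complex, had 7.98 and 12.0 against no peak, and Smpd3, a sphingomyelinase, 23.0 and 30.8 against 14.6 and 4.22. A peak missing in a group takes part in all of these genes, so the sizes depend on the floor.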

How the results depend on the processing

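The count of genes called was 2616, 1022 when a peak was asked for in all 4 samples and 1238 in all 8, and 1187 to 1528 without 1 sample, where the lone sample is assumed to vary like the other groups. The direction turned with the group left short: 249 lower and 938 higher without ctrl/ctrl replicate 1 and 256 and 973 without replicate 2, but 945 and 499 without IL-4/ctrl replicate 1 and 1007 and 521 without replicate 2. Without centring the calls were 1557 lower and 1079 higher, with a median log2 change of −0.25 in place of −0.09. Regions called were 12252, 2268 with a peak in all 4 samples, 2673 in all 8, 7812 with a floor 4 times as high, 6865 with the upper 50% of peaks and 6085 to 6420 without 1 sample, from 1152 lower and 5160 higher (ctrl/ctrl replicate 1 left out) to 4912 and 1508 (IL-4/ctrl replicate 2). With the genes and regions of the full set kept fixed, leaving out 1 sample gave 1820 to 2031 genes and 10025 to 10617 regions, from 777 genes lower and 1043 higher without ctrl/ctrl replicate 1 to 1085 and 946 without IL-4/ctrl replicate 2. The interaction with LPS was called in 1020 genes, 475 with a peak in all 4 samples, 545 in all 8, 614 with the higher floor, 387 at an adjusted p of 0.05, 2290 at an unadjusted p of 0.05 and 286 to 414 without 1 sample (241 negative and 45 positive without ctrl/ctrl replicate 1, 128 and 286 without IL-4/ctrl replicate 1). RNAPII-pS5 calls were 1377, 614 with its 4 samples alone, 364 with a peak in all 8, 883 at an adjusted p of 0.05, 2168 at an unadjusted p of 0.05 and 421 to 723 without 1 sample (88 lower and 635 higher without ctrl/ctrl replicate 1, 371 and 50 without IL-4/ctrl replicate 1). Calls in the study's clusters were 658, and 330 with a peak in all 4 samples. Irak2 turned from lower to higher, at 0.30 (adjusted p = 0.46, limma), when its highest score replaced the sum. Of 100 named genes that were called, 92 kept the call without centring, 96 with quantile normalization, 85 with the higher floor, 82 with the highest score and 85 with the 4 samples alone. The settings with a peak in all 8 samples, with gene body peaks alone and with the set kept fixed were chosen after the data were seen, and the cause of the differences was not tested.

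Replicate numbers did not pair the samples: deviations of samples with the same number had r between −0.026 and 0.0193 across 5244 genes. With the replicate block 2477 genes, 11984 regions and 1178 RNAPII-pS5 genes were called, and the interaction fell to 665. Replicates had r of 0.862 in ctrl/ctrl and 0.866 in IL-4/ctrl.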
